A study of Mus musculus with 3 samples.

Results

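The models described here are genes of GENCODE's TEC class that carried many reads in RNA bound to chromatin of activated mouse macrophages. The class marks unspliced clusters of cDNA evidence that curators have drawn as a transcript and that still await experimental proof as genes. A gene was taken when at least 1 of its transcripts has the type TEC and its mean expected count, the number of reads assigned to it, was at least 300 over the 3 libraries. This gave 249 of the 3258 genes with a TEC transcript and of the 55536 genes with an Ensembl identifier in the tables. Of these, 241 are of gene type TEC and 8 are other genes with a TEC isoform. The label of single-exon models fits the class, since 240 of the 241 have 1 exon and the exception is Gm21816. The members were chosen by their mean expected count, so their levels are given as a description without a test.

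The study measured total RNA, depleted of ribosomal RNA, from the chromatin fraction of C57BL/6J macrophages, phagocytes that had been cultured out of bone marrow. All cells had received 100 ng/ml Lipid A, the active part of bacterial lipopolysaccharide, for 25 min, and no unstimulated sample is analysed here. The 3 libraries form 1 group and differ in the labelled starting RNA, with 250 ng for replicate 2, 500 ng for replicate 3 and 1000 ng for replicate 1. The labels give 1 donor entry for all 3 and record neither age nor sex, so the spread between libraries may be technical.

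An intron is copied with the rest of its gene and removed by splicing, largely while the RNA is still held at the DNA. RNA from the chromatin fraction is therefore rich in introns of long genes. Counting tools that work on annotated exons ignore intron reads, except where an intron holds another annotated transcript, such as a TEC model. Reads from the unspliced RNA of the surrounding gene and reads from a separate RNA made at the same place cannot be told apart in these tables.

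The gene tables held 19230763, 19207049 and 13525994 expected counts in the 250, 500 and 1000 ng libraries. The 10 macrophage markers examined, such as Csf1r and Ptprc, had summed levels of 2249.5, 2757.5 and 3703.5 TPM (a transcript level scaled for gene length and library size). The 18 markers of T cells, B cells, neutrophils, erythroid, stromal and endothelial cells summed to 4.38, 4.69 and 5.42 TPM, and 8 of them had no count. Between libraries, the ratio of a gene's TPM in the 1000 ng to that in the 250 ng library had a median of 1.27 over the tested genes.

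The members held 1.32%, 1.40% and 2.41% of the counts of genes with an Ensembl identifier in the 250, 500 and 1000 ng libraries. Every member had at least 100 counts in every library. Their median level was 22.4, 23.7 and 42.3 TPM in the same order. In TPM, 225 of the 249 were highest in the 1000 ng library, as were 60.5% of all tested genes. Mean levels ran between 5.93 and 1005 TPM, with 32 members at 100 TPM or more and 62 with a mean of 1000 counts or more. The 2978 genes of type TEC under the limit had a median mean count of 0.333, and 1332 of them (44.7%) had no count at all.

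By count a single model, Gm37084, stood above the rest. It lies on chromosome 1 (mm10, chr1:131086252-131092149, minus strand) in an intron of Mapkapk2, the gene of a kinase that acts below p38 and stabilises cytokine mRNAs. It had 35585, 41352 and 49296 counts in the 250, 500 and 1000 ng libraries, which are levels of 683, 837 and 1493 TPM. By level AC167363.2, described below, was above it in the 500 ng library. Gm37084 alone held 14.1%, 15.4% and 15.4% of all member counts. The 12 members with the highest mean counts together held 35.9%, 36.9% and 36.9%.

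Next by count came a pair of models in introns of Picalm, which encodes a clathrin adaptor of endocytosis. Gm45223 reached 263, 275 and 488 TPM, and Gm45222 reached 239, 254 and 435 TPM, in the 250, 500 and 1000 ng libraries. Both were higher in the 1000 ng library than in the other two, which lay close together. Gm37033, in Itpkb, a kinase gene of inositol phosphate signalling, had 127, 106 and 183 TPM.

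AC167363.2 lies opposite Cdkn1a, the gene of the cell cycle inhibitor p21, and 273 of its 1046 bases overlap Cdkn1a exons on the other strand. It had 679, 1003 and 659 TPM and was highest in the 500 ng library, unlike the other 11 of these members. Gm42793, which shares 309 bases with exons of the osteopontin gene Spp1 on the same strand, had 296, 373 and 644 TPM. Their reads can belong to Cdkn1a or Spp1.

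Further members among the 12 lie in introns of Ptprc, Mbnl1 and Dleu2. A130071D04Rik, in an intron of Ptprc, which encodes the leukocyte phosphatase CD45, had 47.1, 57.1 and 171 TPM in the 250, 500 and 1000 ng libraries. Gm37589, in an intron of the splicing regulator gene Mbnl1, had 90.3, 95.2 and 241 TPM. Gm37472, in the first part of the noncoding gene Dleu2, had 103, 125 and 280 TPM. Dleu2, host of a microRNA pair and itself a member through a TEC isoform, had 180, 278 and 432 TPM.

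The last of the 12 lie on the strand opposite their gene. Gm38091, within Mthfs of the folate pathway, had 98.7, 91.6 and 178 TPM. 9330162G02Rik, opposite the ubiquitin ligase gene Ube3a, is 30942 nt long, against 7726 nt for the next longest member. It had a mean of 3379 counts but a level of 14.6 ± 4.31 TPM (SD, n = 3).

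**Figure D1:**
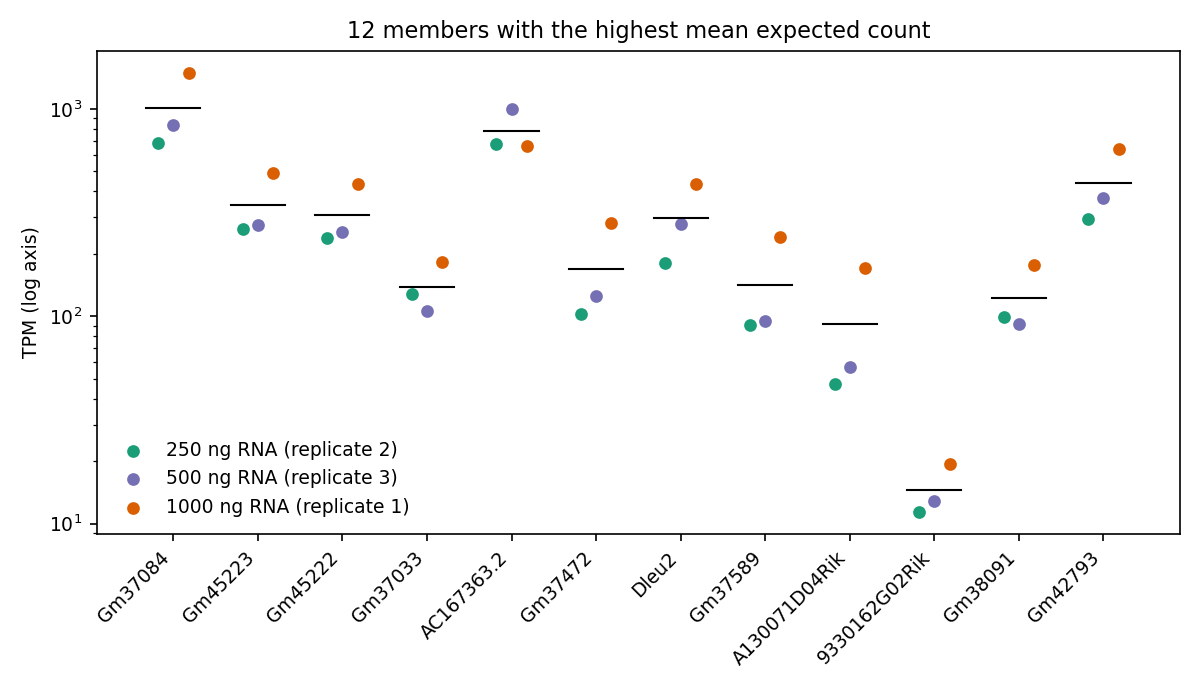
Level of the 12 members with the highest mean expected count, as TPM on a log axis. Points are the 3 libraries by RNA amount and black lines their means. In 11 of the 12 the 1000 ng library is the highest point, and AC167363.2 is highest in the 500 ng library.

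The 3' ends of the models were read from the GENCODE transcripts, because a processed RNA usually carries the polyadenylation signal AATAAA shortly before its end. The search covered the last 50 bases on the transcript's own strand, for genes of type TEC, so the TEC isoforms of other genes are left out. AATAAA was present in 15.7% of the 242 transcripts of the 241 members, in 22.3% of the 3011 transcripts of TEC genes under the limit and in 21.8% of both together. It was present in 27.8% of lincRNA, 27.3% of antisense and 39.4% of protein-coding transcripts of genes with at least 300 counts. Transcripts annotated as retained introns had it in 17.3%. With ATTAAA counted as well, another hexamer that cannot share the same position, the shares were 20.7% for members and 29.6% for TEC transcripts under the limit. In the first 50 bases of members AATAAA occurred in 2.07%.

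The last 60 bases of 10 members show the range, with AATAAA in capitals. The first 6 are the most abundant members that carry it, and it starts 15 to 25 bases before the annotated end in these 6 (median 20.5 over the 38 member transcripts that hold it).
Gm45222 (mm10, chr7:90150195-90150254, plus strand): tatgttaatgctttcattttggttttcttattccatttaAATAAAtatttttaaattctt
AC167363.2 (chr17:29093416-29093475, minus strand): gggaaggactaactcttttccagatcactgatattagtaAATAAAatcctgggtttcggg
Gm38091 (chr9:89259525-89259584, minus strand): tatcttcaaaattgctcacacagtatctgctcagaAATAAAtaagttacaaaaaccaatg
Gm37558 (chr3:69119742-69119801, minus strand): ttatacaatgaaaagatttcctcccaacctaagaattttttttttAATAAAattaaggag
Gm36638 (chr13:101749720-101749779, minus strand): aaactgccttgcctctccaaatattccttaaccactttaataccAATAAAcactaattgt
Gm45407 (chr8:77368841-77368900, minus strand): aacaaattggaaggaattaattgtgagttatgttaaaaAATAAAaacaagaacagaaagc

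The other 4 are the most abundant members with neither hexamer in the last 50 bases.
Gm37084 (mm10, chr1:131086252-131086311, minus strand): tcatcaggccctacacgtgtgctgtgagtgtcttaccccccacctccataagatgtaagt
Gm45223 (chr7:90137570-90137629, plus strand): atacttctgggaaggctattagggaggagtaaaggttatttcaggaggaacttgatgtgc
Gm37033 (chr1:180364939-180364998, plus strand): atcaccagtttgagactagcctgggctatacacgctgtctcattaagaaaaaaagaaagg
Gm37472 (chr14:61677443-61677502, minus strand): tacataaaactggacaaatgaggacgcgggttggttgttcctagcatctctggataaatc

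Within Picalm, Gm45222 thus ends on the hexamer and its neighbour Gm45223 does not. Their levels of 309 ± 109 and 342 ± 127 TPM (SD, n = 3) differed by less than the spread between libraries, although Gm45223 was the higher in each library. A hexamer match is a description of these letters and no evidence of a processed end. Members and TEC transcripts under the limit also had about the same base composition, with a median of 41.7% and 42.4% G or C. Members were longer, with a median of 3071 nt against 1855 nt, and length adds to the count that chose them.

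Almost all members lie within another gene. A gene counted as the host when it has several exons, is not TEC and covers at least 50% of the model. Of the 241 members of type TEC, 184 (76.3%) lie in an intron of a same-strand gene, clear of its exons, against 48.6% of the 2978 TEC genes under the limit. A further 13 members overlap an exon of a same-strand gene, 22 lie in an intron of a gene on the opposite strand, and 12 overlap an exon of one. Outside any such gene were 10 members (4.15%), against 35.6% of the TEC genes under the limit. Only 0.934% of all TEC genes outside other genes reached 300 counts, against 11.3% of those in a same-strand intron.

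**Figure D2:**
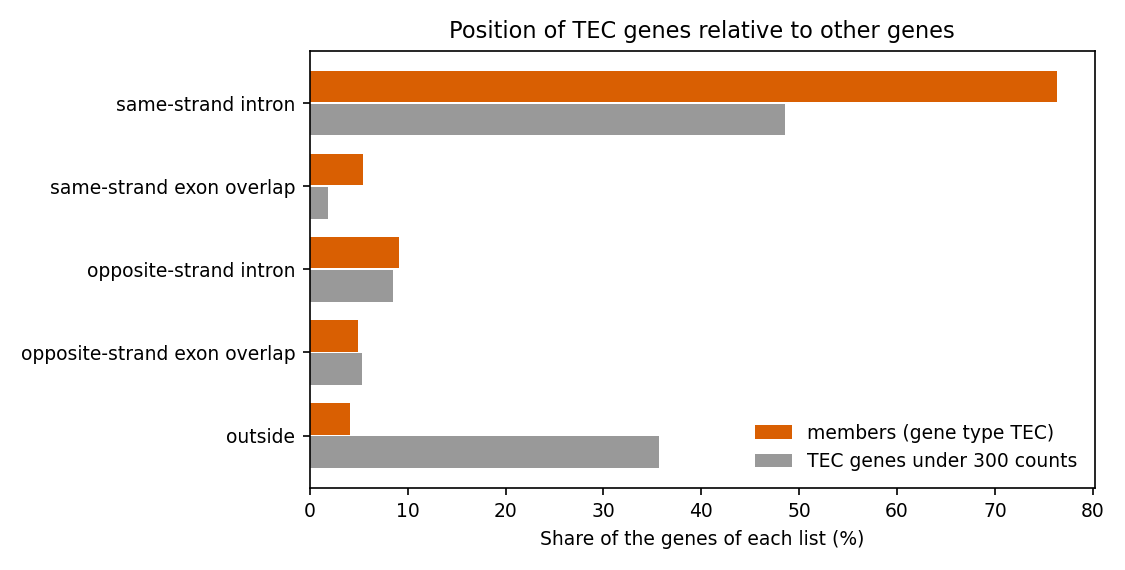
Share of TEC genes by their position relative to multi-exon genes, for 241 members of gene type TEC (orange) and 2978 TEC genes under 300 counts (grey). Same-strand introns hold 76.3% of members and 48.6% of the others, and 4.15% of members and 35.6% of the others lie outside genes.

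Among all TEC genes in introns of same-strand hosts at 20 TPM or more, 174 of 547 (31.8%) reached 300 counts. In hosts between 1 and 20 TPM 10 of 356 did, and in hosts under 1 TPM 0 of 693 did, with a median count of 0. For introns on the opposite strand 20 of 73 (27.4%) did in hosts at 20 TPM or more and 0 of 127 in hosts under 1 TPM. In hosts at 20 TPM or more, the median log2 ratio of the model to the host was -2.90 for the opposite strand (n = 73) and -2.47 for the same strand (n = 547).

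The same-strand hosts of the 197 members numbered 155, most of them protein-coding (184 of the 197 members). The median host level was 83.4 TPM, against a median of 30.4 TPM for the members. The log2 ratio of member to host, with 1 TPM added to both, had a median of -1.80, -1.83 and -1.46 in the 250, 500 and 1000 ng libraries. In 21 members it was above 0 in all 3 libraries. Across these 197 genes the log2 levels of member and host had a Pearson correlation of 0.43, given as a description since both come from the same libraries.

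At the top was Gm37084, whose log2 ratio to Mapkapk2 was 3.30, 3.32 and 2.31 in the 250, 500 and 1000 ng libraries. Mapkapk2 itself had 68.3, 82.9 and 300 TPM. The model thus exceeded its host in each library, and by less in the 1000 ng library. The next members by this ratio, 6430511E19Rik in Gm26944 and Gm47087 in the Notch coactivator gene Maml2, lie in hosts of 4.17 ± 0.988 and 5.79 ± 2.75 TPM (SD, n = 3). Their mean log2 ratios were 2.09 ± 0.43 and 2.06 ± 0.27.

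At the bottom were Gm37728 in the noncoding gene Lncpint, Gm44913 in the neuron navigator gene Nav2 and Gm45220 in Picalm. Their mean log2 ratios were -4.66 ± 0.25, -4.48 ± 0.43 and -4.34 ± 0.42 (SD, n = 3). Gm37728 had 20.3, 27.5 and 39.2 TPM within a host of 650, 674 and 888 TPM in the 250, 500 and 1000 ng libraries.

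**Figure D3:**
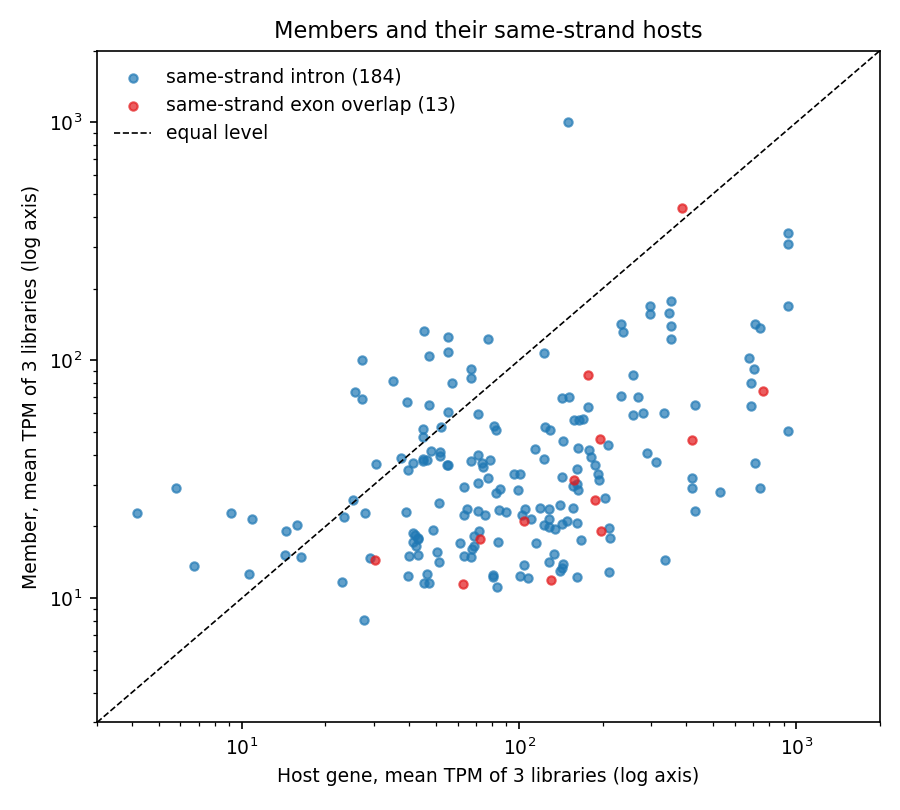
Mean TPM of 197 members against the mean TPM of their same-strand hosts, both on log axes, for intron members (blue) and members that overlap a host exon (red). Most points lie below the dashed line of equal level, and Gm37084 is the highest point, at 1005 TPM against 150 TPM for Mapkapk2.

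Several hosts hold more than 1 member, which allows levels to be set side by side along 1 gene. Hosts with 2 or more members numbered 28, and 8 held 3 or more (Camk2d, Cers6, Fli1, Itpkb, Kansl1l, Med13l, Mir99ahg and Picalm). The hosts and members of the next paragraphs were singled out after their values were seen.

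In Picalm each model was lower than the one before it. The models Gm45223, Gm45222, Gm45221 and Gm45220 have their centres at 5.82%, 21.5%, 68.3% and 86.9% of the 83.3 kb span, counted from its 5' end. In the 250 ng library they had 263, 239, 126 and 28.0 TPM, in the 500 ng library 275, 254, 132 and 30.3 TPM, and in the 1000 ng library 488, 435, 247 and 93.3 TPM. The order was the same in all 3 libraries.

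In Camk2d, the gene of a calcium-dependent kinase, levels were lower with each step from the start of the gene in 2 of the 3 libraries. Its models Gm43011, Gm43010, Gm43009 and Gm42515, centred at 2.38%, 12.4%, 20.0% and 57.2% of 250 kb, had 23.0, 20.9, 14.9 and 9.69 TPM in the 250 ng library. In the 500 ng library Gm43011 and Gm43010 were close, at 22.2 and 22.9 TPM. In Cers6, a ceramide synthase gene, Gm37159 at 12.5% had 32.3, 43.4 and 133 TPM in the 250, 500 and 1000 ng libraries, and Gm38236 at 18.3% had 18.9, 20.8 and 56.9 TPM. Further along Cers6, Gm37747 at 51.4% had 8.32, 9.32 and 22.6 TPM, and Gm38377 at 62.7% was above it in each library, with 12.7, 14.4 and 34.2 TPM.

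Other hosts did not show one slope. In Fli1, the gene of an ETS transcription factor, the third model, Gm38346 at 28.0%, was the highest with 95.1, 107 and 173 TPM, and the fourth, Gm38292, the lowest with 23.7, 25.1 and 60.2 TPM. In Mir99ahg, a noncoding host of microRNAs, the 4 models had mean levels between 14.2 and 23.8 TPM over a span of 537 kb, with Gm37311, at 70.9% of it, the highest on average. In Itpkb the middle model, Gm37390, was the highest in all 3 libraries, at 146, 141 and 246 TPM.

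Over all pairs of intron members within 1 host, the member nearer the 5' end had the higher mean level in 43 of 60 pairs from 26 hosts. By library the count was 45, 43 and 43 in the 250, 500 and 1000 ng libraries. Pairs of 1 host share models and are not independent. With all intron TEC genes of at least 50 counts, which were chosen less narrowly, the count was 206 of 327 pairs (63.0%) from 97 hosts. The median centre of the 184 intron members lay at 31.3% of the host, against 44.0% for the TEC genes under the limit. Across the 184, the Spearman correlation of position with the log2 ratio to the host was -0.27, a description over genes that share libraries.

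**Figure D4:**
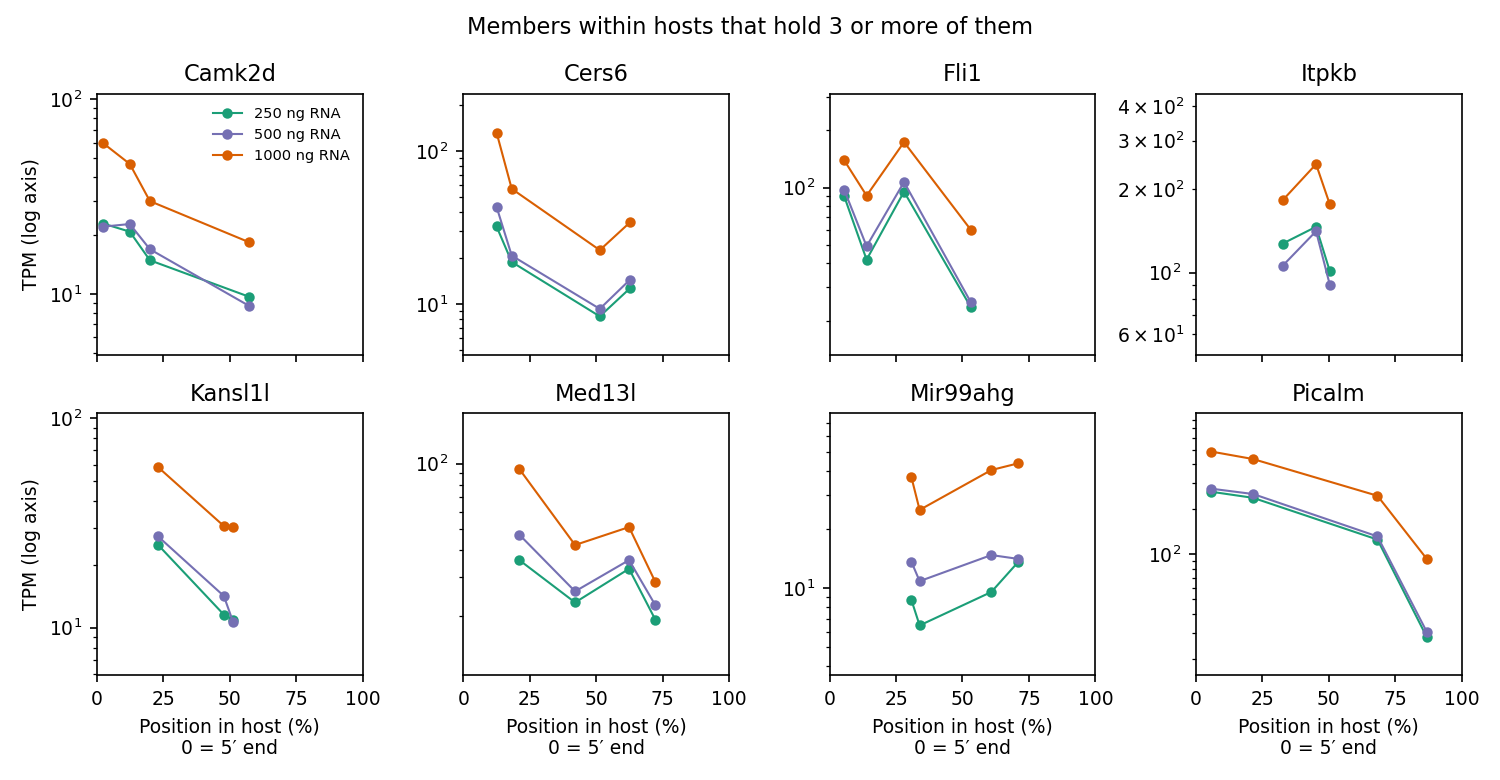
Level (TPM, log axis) of members along the 8 hosts that hold 3 or more, by the position of the member's centre as a percent of the host span from the 5' end. Lines join the members of 1 library. The level falls toward the 3' end in Picalm and Kansl1l, and rises and falls along Fli1, Itpkb and Mir99ahg.

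Members on the opposite strand of a gene need a reading of how reads were assigned. RSEM gives each count a posterior standard deviation, which is above 0 when reads fit more than 1 gene. Among TEC genes with at least 50 counts it was above 0 for 37 of 46 (80.4%) that overlap an exon on the opposite strand, and for 20 of 30 (66.7%) that overlap one on the same strand. In introns it was above 0 for 2 of 56 (3.57%) on the opposite strand and for 26 of 575 (4.52%) on the same strand. It was also above 0 for 13 of 56 (23.2%) outside genes, and it was 0 in every library for 3 of the 12 members that overlap an opposite-strand exon (Gm37127, Gm43361 and Gm37655). These 3 have the shortest exon overlaps of the 12, at 36, 83 and 46 bases, against 117 to 1796 bases for the others. The strand setting of the counting is not known here, so sense and antisense RNA cannot be told apart for members that face another gene.

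The spread was small beside most counts. It was 0 in every library for 217 of the 249 members, and above 1% of the count in some library for 7. The exceptions in size were Gm20236 and Gm37094 on chromosome 14, which had identical counts of 368, 425.5 and 630 in the 250, 500 and 1000 ng libraries, with a spread of up to 61.5% of the count. They share their reads, so their split is uncertain. They were singled out after their values were seen.

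Examples of members that face a gene on the other strand, chosen after their values were seen, include 3 in well-known genes. Gm43980, within the splicing factor gene Tra2a, had 42.0, 53.3 and 128 TPM, and 4930517G19Rik, within the taurine transporter gene Slc6a6, had 55.4, 69.5 and 174 TPM in the 250, 500 and 1000 ng libraries. Gm43963, which shares 196 bases with exons of Irak2, a gene of Toll-like receptor signalling, on the other strand, had 11.6, 16.3 and 51.2 TPM.

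The 10 members outside other genes had levels between 5.93 and 137 TPM. The highest was Gm37352 (mm10, chr8:84200869-84203049, plus strand), with 132, 146 and 133 TPM in the 250, 500 and 1000 ng libraries, a spread of 5.44% of the mean. It ends 5469 nt before the annotated Mir23a hairpin on the same strand, which is followed by Mir27a and Mir24-2. Gm37795 on chromosome 4 overlaps the Mir34a hairpin by 17 nt on the same strand and had 18.9, 22.1 and 21.3 TPM. Both are shown with their neighbours' mature microRNAs because they are the members outside other genes with a microRNA gene within 10 kb. The sequences are those of RefSeq (GRCm38.p6), with the seed, bases 2 to 8, in capitals, and no 2 of the 4 share a seed.
mmu-miR-23a-3p: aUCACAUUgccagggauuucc
mmu-miR-27a-3p: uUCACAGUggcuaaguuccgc
mmu-miR-24-3p: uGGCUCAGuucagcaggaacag
mmu-miR-34a-5p: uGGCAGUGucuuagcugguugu
The mature miR-34a-5p lies 45 nt before the start of Gm37795, so the model does not hold it. Of the 241 members of gene type TEC, 11 have an annotated small RNA gene within 10 kb on either strand. Members of other gene types, such as Dleu2, are not in this count.

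A list of 84 genes of the early Lipid A response, such as Fos, Egr1, Tnf and Nfkbia, was searched for TEC models. Among its 76 multi-exon protein-coding genes that were tested, 1 holds a TEC gene at any level, against 7.14% of all 10724 such genes. The response genes are also shorter, with a median span of 8.28 kb against 25.4 kb, and the difference was not tested. The 1 gene is Nfkb1, which encodes an NF-kappaB subunit. Its intron member Gm43430 had 25.5, 34.6 and 97.4 TPM in the 250, 500 and 1000 ng libraries, against 105, 118 and 149 TPM for Nfkb1. The member was more than 2 times as high in the 1000 ng library as in either other library, and Nfkb1 was not.

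The labels set the libraries apart by RNA amount alone, and the slope on that amount was tested over all genes with edgeR's quasi-likelihood test. The slope is the log2 change per doubling of RNA, with 1 library per amount and 1 residual degree of freedom, so amount and library cannot be told apart. Of the 249 members, 66 were called higher with more RNA and 1 lower at a Benjamini-Hochberg adjusted p under 0.05. Over all 13993 genes tested, 4.52% were called higher and 2.85% lower (7.38% in either direction). The median slope was 0.30 for members, with 205 above 0, and -0.01 for all genes. In bulk libraries, fewer cells of a type and less RNA per cell cannot be told apart either.

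The slope rests on the 1000 ng library. Without that library the median member slope was 0.063, without the 250 ng library 0.56 and without the 500 ng library 0.31. Of the 66 members called higher, all 66 had their highest TPM in the 1000 ng library and 61 followed the order of the amounts. Selection for a positive slope favours both counts, and 60.5% of all tested genes were highest in that library. Without the 1000 ng library the slope of 55 of the 66 was above 0, as was that of 153 of all 249 members. The same selection favours the count of 55, since both slopes use the 250 ng library. DESeq2 called 33 members higher and 0 lower, against 3.28% higher and 1.35% lower over the genes to which it gave an adjusted p. On the kallisto-type counts edgeR called 24 higher and 0 lower, against 1.19% and 0.486% of all genes tested. At an unadjusted p under 0.05, DESeq2 called 96 members higher and 4 lower. With that limit edgeR called 105 higher and 5 lower on kallisto-type counts, and 124 higher and 7 lower on the expected counts. The shares of all genes at this limit are not given here.

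The same fit gave these values for other classes with at least 300 counts and for the remaining TEC genes. Of 62 lincRNA genes 8 were higher and 2 lower, with a median slope of 0.17. Of 56 antisense genes 17 were higher and none lower, with a median slope of 0.26. Of 5029 protein-coding genes 282 were higher and 249 lower, with a median slope of -0.02. Of 829 TEC genes under the limit that were tested, 57 were higher and 1 lower, with a median slope of 0.23. Differences between these classes were not tested.

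The steepest members lie in Dock10, which encodes an activator of small GTPases. A630081D01Rik had 595, 966 and 2987 counts in the 250, 500 and 1000 ng libraries, or 40.7, 69.5 and 317 TPM, with a slope of 1.30 (SE 0.14, adjusted p = 3.43e-07, edgeR). Gm38062 had 28.7, 40.2 and 144 TPM and a slope of 0.99 (SE 0.15, adjusted p = 2.97e-05, edgeR). Dock10 itself had 187, 210 and 302 TPM and a slope of 0.08 (SE 0.13, adjusted p = 0.754, edgeR). Both models lie in the first 12% of the host.

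Mxd1, the gene of a Myc antagonist, gave the other pattern. Its member Gm44292 had 53.6, 146 and 272 TPM in the 250, 500 and 1000 ng libraries, and Mxd1 had 130, 335 and 573 TPM. Their slopes were 0.98 (SE 0.14, adjusted p = 1.77e-05, edgeR) and 0.94 (SE 0.14, adjusted p = 4.01e-05). Gm21816 in Mir99ahg, with 8.73, 13.7 and 37.0 TPM, had a slope of 0.86 (SE 0.15, adjusted p = 0.000323, edgeR), and Mir99ahg had 0.68 (SE 0.13, adjusted p = 0.000765). Gm43963, opposite Irak2, had a slope of 0.89 (SE 0.15, adjusted p = 0.000257, edgeR). Gm43430 in Nfkb1 had a slope of 0.78 (SE 0.13, adjusted p = 0.000279, edgeR), against 0.09 (SE 0.13, adjusted p = 0.713) for Nfkb1.

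Of the top 12 members by count, Gm37472, Dleu2, Gm37589 and A130071D04Rik were called higher with more RNA, and none lower. Their slopes were 0.53, 0.64, 0.52 and 0.74, with SEs of 0.13 each (adjusted p = 0.00845, 0.00124, 0.0122 and 0.000405, edgeR). On kallisto-type counts the first 3 were no longer called (adjusted p = 0.0646, 0.0581 and 0.0956, edgeR), nor was Gm37589 with DESeq2 (adjusted p = 0.0619). Without the 1000 ng library the slope of Gm37589 was -0.047. The slope of Gm37084 was 0.37 (SE 0.14, adjusted p = 0.104, edgeR). Its host Mapkapk2 was called, with a slope of 0.78 (SE 0.14, adjusted p = 0.000305). AC167363.2 had a slope of -0.19 (SE 0.15, adjusted p = 0.499, edgeR).

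The only member called lower was Gm43336, in an intron of Coro1c, which encodes an actin-binding coronin. It had 1360, 512 and 460 counts in the 250, 500 and 1000 ng libraries, or 34.7, 13.8 and 18.5 TPM, and a slope of -0.66 (SE 0.15, adjusted p = 0.00549, edgeR). Without the 250 ng library its slope was 0.16. Coro1c had a slope of -0.35 (SE 0.13, adjusted p = 0.0963). The next lowest slopes, -0.42 to -0.34, belonged to B130021K23Rik in the spliceosome gene Isy1, Gm49759 in the pyruvate kinase gene Pkm, AC123927.3 in Ap3s1 and Gm43571 in Atxn2. None of these 4 passed the test (adjusted p = 0.0718 to 0.166, edgeR). Gm49759 shares 767 bases with Pkm exons, and Pkm was called lower (slope -0.64, SE 0.13, adjusted p = 0.00175).

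Member and host slopes from the same fit were set side by side for the 197 same-strand pairs. The median was 0.31 for members and 0.09 for hosts, and the member had the higher slope in 139 pairs. The signs matched in 123 pairs and the Pearson correlation was 0.49, given as a description over genes that share libraries and hosts. Of the 53 members called higher in these pairs, 21 had a host that was also called higher and none a host called lower. Over the 155 distinct hosts, 22 were called higher and 1 lower, with a median slope of 0.08. Without the 1000 ng library the median difference between member and host was -0.0030, against 0.18 with all libraries.

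By position, the calls spread over all classes. Higher with more RNA were 50 of 184 same-strand intron members, 3 of 13 that overlap a same-strand exon, 6 of 22 in opposite-strand introns, 4 of 12 that overlap an opposite-strand exon and 1 of 10 outside genes, which was Gm44154. The position in the host did not order the slopes, with a Spearman correlation of 0.0090 across the 184 intron members.

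**Figure D5:**
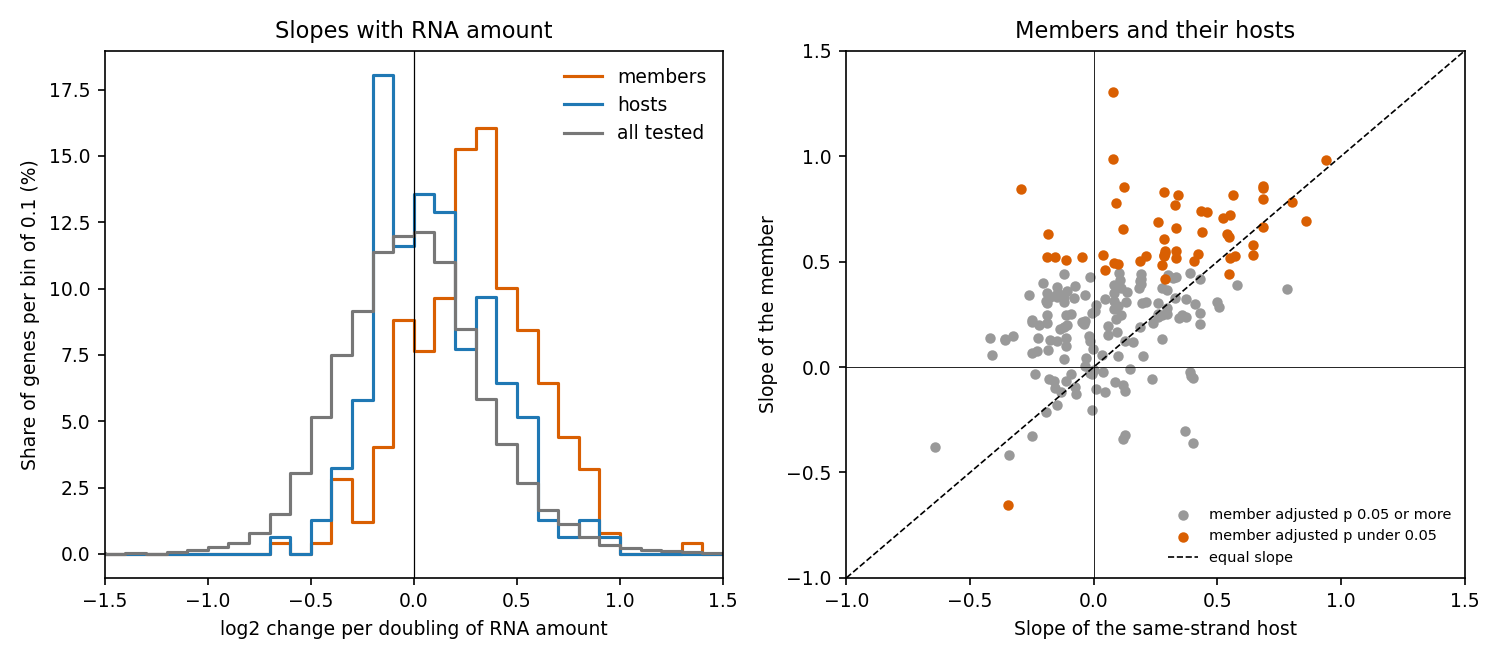
Left, distribution of the log2 change per doubling of RNA amount for 249 members (orange), 155 same-strand hosts (blue) and 13993 tested genes (grey), as percent of genes per bin. Right, slope of each member against that of its host for 197 pairs, with members called at an adjusted p under 0.05 in orange. The member curve is shifted to the right of both others, and 139 pairs lie above the dashed line of equal slope.

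The spread between libraries was wide. The coefficient of variation of TPM had a median of 39.1% for members, against 29.2% for lincRNA, 32.6% for antisense and 18.6% for protein-coding genes with at least 300 counts. It was above 50% in 72 members and under 10% in 10. The largest values belonged to both Dock10 models, at 107% for A630081D01Rik and 89.5% for Gm38062. Gm38357 in Noct, the nocturnin gene, followed with 41.5, 38.9 and 165 TPM in the 250, 500 and 1000 ng libraries, and Gm48996 in the filopodial myosin gene Myo10 with 7.12, 8.04 and 29.3 TPM. Myo10 had 64.8, 68.1 and 68.7 TPM, so its TPM moved little while its intron member was highest in the 1000 ng library. The slope of Myo10 was -0.29 (SE 0.13, adjusted p = 0.174, edgeR).

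The steadiest members were F830112A20Rik in Tmem131, with 15.4, 14.6 and 15.1 TPM in the 250, 500 and 1000 ng libraries, and A130012E19Rik in Zfc3h1, a gene of nuclear RNA decay, with 34.8, 35.3 and 38.4 TPM. Gm37352 before Mir23a was next, and then Gm37127, which overlaps 36 exon bases of Fam168b on the other strand, with 42.2, 37.6 and 40.2 TPM. The coefficients of variation of TPM of these 4 ran from 2.81% to 5.81%. Their slopes with RNA amount were all below 0, from -0.22 to -0.12, and none was called.

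The 8 members of other gene types owe their count to all of their isoforms. In the kallisto-type tables the TEC isoform held 100% of the counts of Gm43813, 43.9% ± 2.66 of those of Dleu2 and 23.2% ± 0.242 of those of Mir99ahg (SD, n = 3). It held 12.1% ± 0.583 for Ensa, a regulator of mitotic phosphatase, 7.38% ± 0.557 for Memo1, and between 1.29% and 2.78% for Dera, Sfswap and Snhg14. In all of these genes except Gm43813, most counted reads lay on other isoforms.

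The kallisto-type tables gave higher counts for all 249 members. The ratio of kallisto-type to RSEM counts had a median of 1.38 for members and 1.51 for all genes with at least 300 RSEM counts. The largest ratios were 13.2 for Gm42427, 8.52 for Gm45033 in Pik3c2a and 3.06 for Gm37010 in the leukocyte surface gene Cd48. Gm42427 had a mean of 314 RSEM counts and 4149 kallisto-type counts, so its level is not settled by these tables. The smallest were 1.13 for 6430511E19Rik, 1.14 for Gm42793 and 1.15 for Gm47087. The order of members by TPM was close in both, with a Spearman correlation of 0.94 over the 249.

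Just inside the limit lay Gm37311, Gm44913 and B930086L07Rik, the last in the corepressor gene Ctbp2, with mean counts of 300.7, 301 and 303. Just outside lay D130019J16Rik, E330034L11Rik and Gm45719, with 297, 296 and 291.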

How the data were processed

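The 3 libraries belong to 1 group, with the RNA amount from the labels. The authors deposited per library a gene table with expected counts, TPM and the posterior standard deviation of the count (a score here), in columns that RSEM writes, and a transcript table with estimated counts and TPM in columns that kallisto writes, per the file headers. Assembly mm10 and GENCODE release M21 are named in the deposited readme files. For the aligner, tool versions and strand setting, the sources used here give nothing. Counts over annotated exons cannot separate a model inside an intron from unspliced RNA of its host.

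Levels are expected counts over effective length, scaled to TPM over genes with an Ensembl identifier and at least 300 nt. tRNA and spike-in entries (26345) were left out. The test used edgeR 4.0.16 (TMM, filterByExpr, quasi-likelihood F test; R 4.3.3) on rounded counts with log2 RNA amount as the term, and Benjamini-Hochberg adjustment over all genes tested. The script was tested on simulated data with 200 changed genes, at dispersions (variance between libraries beyond counting error) of 0.02 and 0.1. It recovered 43 and 0 of 200 slopes of 0.5, and 199 and 25 of 200 slopes of 1. Slopes that were not called may therefore be missed changes. DESeq2 1.42.0, RLE factors, no filter, kallisto-type counts and leaving out libraries were alternatives. Positions, small RNA genes and 3' ends came from GENCODE M21. Tables and plots were made in Python 3.11.15 with pandas 2.3.3, numpy 2.4.6, scipy 1.17.1 and matplotlib 3.10.9.

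The members, gene lists and tests were chosen with earlier results of these data known. Members were named by rule: the 12 highest counts, the 5 highest and 5 lowest slopes, the 4 largest and 4 smallest coefficients of variation, 3 on either side of the limit, the 3 largest and 3 smallest ratios of kallisto-type to RSEM counts and of member to host, members in response genes, and their hosts. Others named were chosen after their values were seen.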

Additional observations from a re-analysis of the deposited data

How the results depend on the processing

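The number of members was 612 with kallisto-type counts and 144 with a limit of 500, and it ran between 229 and 259 when 1 library was left out. The median member level was 10.8 in deposited TPM, which also covers small RNAs, and 23.5 to 33.9 TPM without 1 library. Members called higher with RNA amount numbered 33 with DESeq2 and 24 with kallisto-type counts. Those called lower numbered 0 in both. With RLE factors, no filter, without the ribosomal DNA locus genes, and in the settings added after seeing the data (filterByExpr with the design matrix, genes of type TEC alone, members without assignment spread alone), the count stayed within 1.5 times 66, at 55 to 69. The median member slope ran between 0.063 and 0.56 without 1 library, and the median difference between member and host slopes between -0.0030 and 0.38. The median log2 ratio to the host was -2.08 with kallisto-type TPM and -1.85 to -1.59 without 1 library. The spread of members as an SD of log2(TPM + 1) had a median of 0.51, against 0.27 for all genes with at least 300 counts. Of 39 named members 16 were called. Of these 16, 7 with kallisto-type counts and 4 with DESeq2 were no longer called, and the cause was not tested. Gm37084 passed with no filter (adjusted p = 0.0239) and Gm42793 with RLE factors (adjusted p = 0.0469, edgeR). The lost calls were those of Gm37589, Gm43336, Gm38357 and Gm37311 in both, and of Gm37472, Dleu2 and Gm48996 with kallisto-type counts alone. With a library left out, slopes were computed without a test. Of the 16 named members that were called, 5 then changed direction. Without the 1000 ng library the slope was -0.047 for Gm37589, -0.22 for Gm38357, -0.067 for Gm37311 and -0.0063 for Gm45220, and without the 250 ng library it was 0.16 for Gm43336. No paired analysis was possible because the libraries form 1 group. With 1 library per RNA amount, depth and amount cannot be told apart, and counts cover counting error only.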
